A study of Mus musculus with 6 samples.

Results

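DNA methylation of the clustered protocadherin genes was examined in 3 kinds of mouse pluripotent stem cells. The genes are those on chromosome 18 whose GRCm38 symbol begins with Pcdha, Pcdhb or Pcdhg, which gave 58 of the 53843 genes annotated on chromosomes 1 to 19 and X. They comprised 12 Pcdha, 22 Pcdhb, 12 Pcdhga and 7 Pcdhgb genes and 5 C-type genes (Pcdhac1, Pcdhac2, Pcdhgc3, Pcdhgc4 and Pcdhgc5). All 6 libraries were whole-genome bisulfite libraries, with 2 biological replicates in each of 3 groups, and the labels give the cells of all 3 as wild type and of the strain 129S2/SvPasCrl. The methods of the study instead trace the lines from which ASCs were obtained to 129/sv females and transgenic males of mixed C57BL/6J, MF1 and 129/sv origin, GFP reporter males included, and do not say which lines these libraries came from. Advanced pluripotent stem cells (ASCs) were lines derived from blastocysts and kept with Activin A, BMP4, CHIR99021 and LIF, a medium with factors of both naive and primed culture. The study derived ASCs in 2 steps. Blastocysts first gave lines kept with Activin A and bFGF, which it found close to EpiSCs in expression, and these were then moved to the ASC medium. Naive embryonic stem cells (ESCs) were kept in 2i/LIF, which pairs inhibitors of MEK and GSK3 with LIF, and epiblast stem cells (EpiSCs) represented the primed state. The study described the lines as female, and the labels do not say whether the replicates of a group were separate lines or cultures of 1 line. P-values therefore measure the spread between these libraries only.

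Clustered protocadherins are cell surface proteins of the cadherin superfamily by which neurons tell their own processes from those of other neurons. In the alpha and gamma clusters, each variable first exon has its own promoter, encodes the whole extracellular part and is spliced to the same set of constant exons, whereas most Pcdhb genes consist of 1 exon. Each neuron uses a small, largely random set of the alpha, beta and gamma variable promoters, and binding of CTCF and cohesin and promoter methylation are known to bear on that choice, while the C-type genes are used more uniformly. DNA methylation of the clusters is laid down early in development by the enzyme DNMT3B.

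The libraries held between 63716740 and 74802554 CpG reads, or 3.03 to 3.55 reads for each CpG listed, on average. A CpG read within a region is called an observation, and the level of a region is the percentage of its observations that were methylated. Over 445422 tiles of 2 kb, the median level of ASCs was 68.9% ± 0.13, that of ESCs 19.6% ± 0.25 and that of EpiSCs 92.1% ± 0.03 (SD, n = 2 in each group). The groups were checked at promoters of marker genes. The naive marker Tcl1 was at 5.56% and 2.60% in ASCs, with 0.769% and 1.77% in ESCs and 93.9% and 93.5% in EpiSCs. Pou5f1 and Sox2, which all 3 kinds of cells use, were at or below 1.32% in every library.

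The clusters lay between the start of Pcdha1 at chr18:36930285 and the end of the last gamma constant exon at chr18:37841873 (GRCm38), with every member on the + strand. The variable first exon held the longest coding sequence in all 58 genes. First exons contained a median of 96.5 CpG sites at 3.07 per 100 bp, and all 58 had at least 40 observations in every library. Promoters were taken as the 1000 bp upstream and the first 100 bp downstream of the start, and contained a median of 14 CpG sites, compared with 28 in the 21698 other protein-coding genes. Only 9 of the 58 promoters reached 40 observations in every library, namely those of Pcdhac1, Pcdhac2, Pcdhgc3, Pcdhgc4, Pcdhb13, Pcdhga11, Pcdhgb4, Pcdhgb5 and Pcdhgb8. The 49 promoters under the minimum were all 12 of Pcdha, the other 21 of Pcdhb, the other 11 of Pcdhga, the other 4 of Pcdhgb and that of Pcdhgc5. They were not tested and, apart from Pcdhgc5, are given only as pooled families, so the first exons carry most of the comparison.

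To ask where ASCs stand between naive and primed cells at these genes, the first exons were compared between the groups. The median over the 58 first exons was 20.9% ± 0.57 in ASCs, against 5.35% ± 0.79 in ESCs and 92.3% ± 0.012 in EpiSCs, as mean and SD of 2 libraries. ASCs were thus nearer to ESCs than to EpiSCs at these exons, in contrast to the tiles of the genome as a whole. All 58 first exons were lower in both ASC libraries than in both EpiSC libraries, a separation that was not counted over all first exons. Of the 58, 57 were called lower in ASCs than in EpiSCs, where 26.2% of the 14122 first exons tested and 20.6% of the 3160 with at least 50 CpG sites were called. A call required an adjusted p under 0.05 in a limma-moderated quasi-binomial model and at least 20 percentage points between the group means. The remaining first exon was that of Pcdhac2, a C-type gene, at 7.30 points. Its adjusted p was 0.0408.

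EpiSCs were called higher than ESCs at all 58 first exons, against 42.2% of all first exons tested and 27.2% of the 3160 with at least 50 CpG sites. ASCs were called higher than ESCs at 23 of 58, against 30.6% of all first exons and 12.2% of those with at least 50 CpG sites. Without the minimum of 20 points, the adjusted p was under 0.05 at 52 of 58, against 36.8% of all first exons, and none was lower in ASCs than in ESCs. Both ASC libraries exceeded both ESC libraries at 56 of 58 first exons, a separation likewise not counted over all first exons. The difference between ASCs and ESCs had a median of 16.0 points and ranged from 1.47 to 36.3 points, whereas the difference between EpiSCs and ESCs had a median of 86.0 points.

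**Figure D1:**
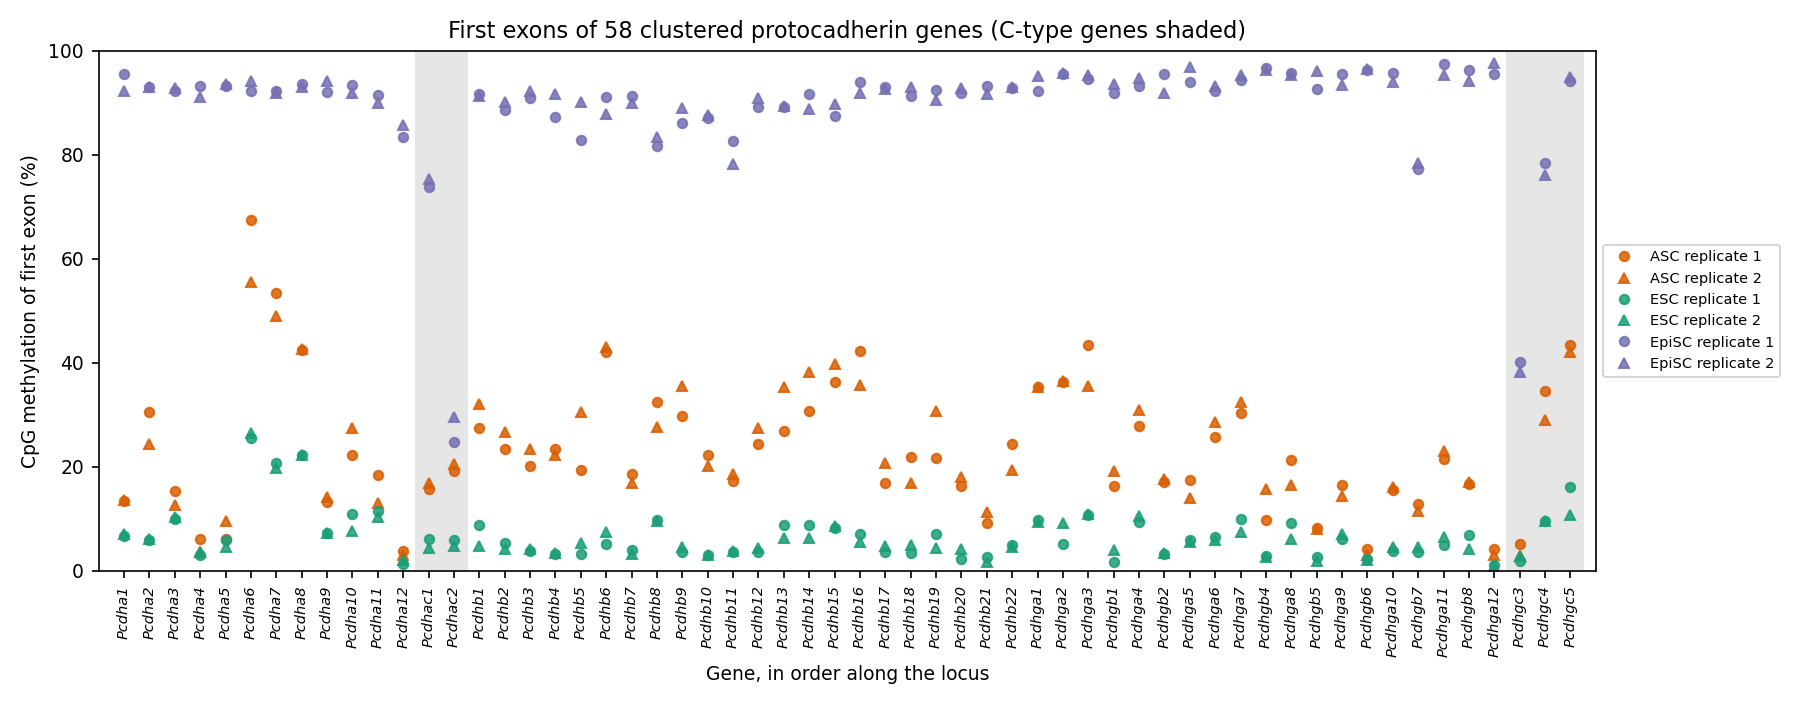
CpG methylation (%, vertical axis) of the first exon of each of the 58 genes in order along the locus (horizontal axis), with 1 point per library, circles for replicate 1 and triangles for replicate 2. By the group means, ASCs (orange) lie nearer to ESCs (green) than to EpiSCs (purple) at every gene but Pcdha6 and Pcdhac2, and the lowest EpiSC levels are those of Pcdhac2 and Pcdhgc3 among the C-type genes (shaded).

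Most first exons of other genes hold fewer CpG sites or are unmethylated in EpiSCs, so the members were also set beside those that passed the same minimum for both. Of other genes, 390 first exons had at least 50 CpG sites and at least 80% methylation in EpiSCs. Their median in ASCs was 58.8% ± 0.51 (SD, n = 2), with quartiles at 27.5% and 73.6%. Among the clustered protocadherins, 53 first exons met the same criteria, with an ASC median of 21.9% ± 0.51 (SD, n = 2) and quartiles at 15.7% and 31.0%. The ASC level was under 50% at 51 of these 53 members and at 39.2% of the 390 others. On a scale where ESCs are at 0 and EpiSCs at 1, ASCs had a median position of 0.195 in the 53 members and 0.549 in the 390 other first exons. The match is a partial one, since the members held a median of 89 CpG sites and the others 62. Length and CpG density were not matched. First exons of all 58 members had a median of 3.07 CpG sites per 100 bp, compared with 5.88 in other protein-coding genes. ESC medians of the 53 members and the 390 others were 5.62% and 16.8%, so the members were also lower in ESCs. A low level in ASCs beside a high one in EpiSCs was also seen outside the clusters. The 132 promoters of other genes that passed both minimums had an ASC median of 7.11% ± 0.31 (SD, n = 2) and a median position of 0.0504, and 91.7% of them were under 50% in ASCs. These values describe the exons, which share libraries, and no test between the sets was made.

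**Figure D2:**
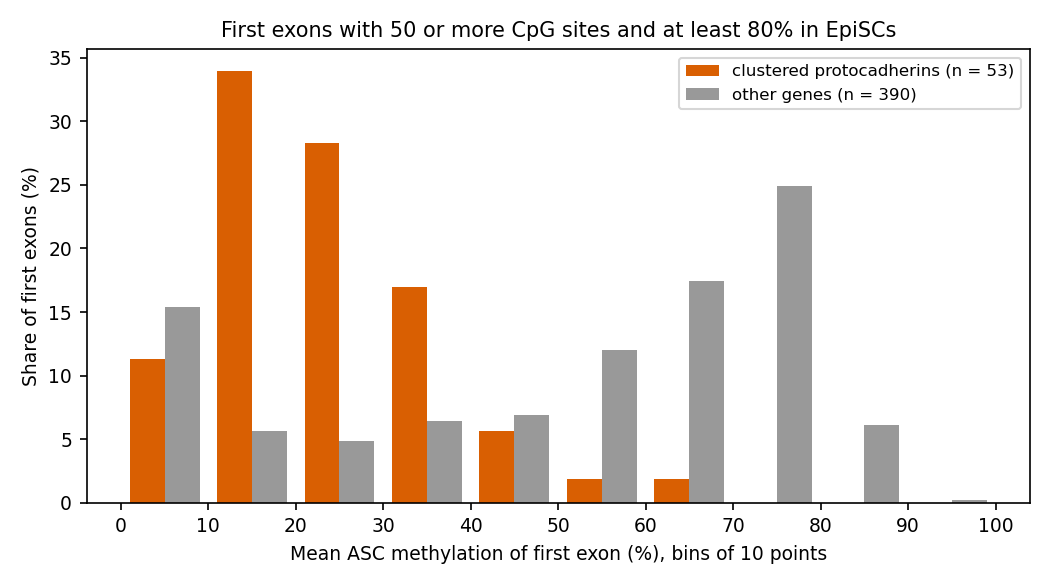
Share of first exons (%, vertical axis) by their mean ASC methylation (%, bins of 10 points), among first exons with at least 50 CpG sites and at least 80% methylation in EpiSCs. Clustered protocadherins (orange, n = 53) gather between 10% and 40%, while other genes (grey, n = 390) have their highest bar at 70% to 80% and a smaller group under 10%.

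The Pcdha genes showed the widest spread in ASCs, from 3.35% at Pcdha12 to 61.5% at Pcdha6. Pcdha6 (first exon chr18:36967631-36970137) was at 67.4% and 55.6% in ASCs, with 25.5% and 26.5% in ESCs and 92.2% and 94.2% in EpiSCs. Its neighbour Pcdha7 was at 53.4% and 48.9% in ASCs, with 20.7% and 19.7% in ESCs and 92.2% and 91.9% in EpiSCs. The next gene, Pcdha8, was at 42.5% and 42.7% in ASCs, with 22.2% and 22.3% in ESCs and 93.6% and 93.1% in EpiSCs. These adjacent genes had the highest first-exon levels of all 58 members in ESCs, where no other member had a mean above 13.4%, and 3 of the 5 members at or above 40% in ASCs. The groups did not overlap at any of them. The genes on either side were low in ASCs, with Pcdha5 at 6.07% and 9.61% and Pcdha9 at 13.3% and 14.2%.

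Of the 12 Pcdha first exons, 4 were called higher in ASCs than ESCs. Of all first exons tested, 30.6% were called, and 12.2% of those with at least 50 CpG sites. Pcdha6 was higher by 35.5 points (adjusted p = 0.00327), Pcdha7 by 31.0 points (adjusted p = 0.000776) and Pcdha8 by 20.4 points (adjusted p = 0.000724). Pcdha2 was at 30.5% and 24.4% in ASCs and at 5.95% and 6.03% in ESCs, a difference of 21.4 points (adjusted p = 0.00126). Pcdha2 was no longer called without ASC replicate 1, when the difference was 18.4 points, and Pcdha8 was no longer called without the first 100 bp of its exon, at 19.8 points. At the other end, Pcdha12 (first exon chr18:37020149-37022623) was at 3.73% and 2.96% in ASCs, with 1.20% and 2.04% in ESCs and 83.5% and 85.7% in EpiSCs. Its ASC and ESC levels differed by 1.73 points (adjusted p = 0.0873), and it lay 81.3 points under EpiSCs (adjusted p = 0.000141). Pooled over the 12 genes, first exons were at 24.5% ± 0.58 in ASCs, against 11.1% ± 0.31 in ESCs and 91.9% ± 0.08 in EpiSCs (SD over 2 libraries).

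The 22 Pcdhb genes were more alike. Their means in ASCs ran from 10.2% to 42.6%, none was under 10%, and every ESC mean was at or below 9.58%. Pooled over the family, first exons were at 25.3% ± 1.47 in ASCs, against 5.01% ± 0.24 in ESCs and 90.0% ± 0.19 in EpiSCs (SD over 2 libraries). Of the 22, 12 were called higher in ASCs than ESCs, against 30.6% of all first exons tested. All 22 had an adjusted p of 0.0170 or lower, where 36.8% of all first exons were higher with one under 0.05. Pcdhb6 was highest in ASCs, at 42.1% and 43.1%, with 5.15% and 7.40% in ESCs and 91.0% and 87.8% in EpiSCs. Its ASC level was 36.3 points above its ESC level (adjusted p = 0.000838), the largest such difference among the 58 members. Pcdhb21 was lowest, at 9.16% and 11.3% in ASCs, with 2.59% and 1.62% in ESCs and 93.3% and 91.7% in EpiSCs. Pcdhb1, which stands apart from the other beta genes at the 5′ end of the array, was at 27.5% and 32.0% in ASCs, with 8.70% and 4.65% in ESCs and 91.6% and 91.3% in EpiSCs, close to the family values. The 10 Pcdhb genes that did not reach 20 points over ESCs were Pcdhb3, Pcdhb4, Pcdhb7, Pcdhb10, Pcdhb11, Pcdhb17, Pcdhb18, Pcdhb20, Pcdhb21 and Pcdhb22, with differences between 8.14 and 19.7 points. Pcdhb4 was the nearest to the threshold and passed it, at 20.3 points, without ASC replicate 2.

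In the gamma array, Pcdhga and Pcdhgb genes alternate, and the Pcdhgb genes were lower in ASCs. Pooled first exons were at 21.8% ± 0.52 in ASCs for Pcdhga and 12.1% ± 0.33 for Pcdhgb, with 6.32% ± 0.034 and 3.25% ± 0.13 in ESCs and 95.2% ± 0.35 and 91.6% ± 0.080 in EpiSCs (SD, n = 2 in each group). In 5 of 7 cases a Pcdhgb gene was lower in both ASC libraries than the nearest Pcdhga gene on either side. The exceptions were Pcdhgb2 beside Pcdhga5 and Pcdhgb8 beside Pcdhga12. Pcdhgb first exons were also denser in CpG sites, with a median of 4.60 per 100 bp compared with 3.13 for Pcdhga, and 6 of 7 were denser than both neighbours. The part of CpG density in the difference was not tested.

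Within Pcdhga, 5 of 12 first exons were called higher in ASCs than ESCs, against 30.6% of all first exons tested. They were those of Pcdhga1, Pcdhga2, Pcdhga3, Pcdhga6 and Pcdhga7. Pcdhga3 was highest, at 43.4% and 35.4% in ASCs, with 10.7% and 10.8% in ESCs and 94.6% and 95.3% in EpiSCs. Pcdhga6 was called by 20.9 points and fell under the threshold without ASC replicate 2, at 19.5 points. Pcdhga12 (first exon chr18:37765580-37768540) was lowest, at 4.17% and 2.99% in ASCs, with 1.04% and 0.937% in ESCs and 95.6% and 97.7% in EpiSCs. Its difference between ASCs and EpiSCs, 93.1 points, was the largest among the 58 members (adjusted p = 0.000141). The gap rested on at least 821 observations in each library.

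None of the 7 Pcdhgb first exons was called higher in ASCs than ESCs, although the adjusted p was under 0.05 at 6 of 7. The shares of all first exons were 30.6% called and 36.8% with an adjusted p under 0.05. Pcdhgb1 was highest, at 16.2% and 19.1% in ASCs, with 1.57% and 4.0% in ESCs and 92.0% and 93.6% in EpiSCs. Pcdhgb6 was lowest, at 4.19% and 3.05% in ASCs, with 2.30% and 1.99% in ESCs and 96.4% and 96.6% in EpiSCs. Its ASC and ESC levels differed by 1.47 points (adjusted p = 0.0606), while it lay 92.8 points under EpiSCs (adjusted p = 0.000112). Pcdhgb8, which the annotation calls a polymorphic pseudogene, was at 16.7% and 17.1% in ASCs, with 6.77% and 4.23% in ESCs and 96.4% and 94.2% in EpiSCs, within the range of the coding members.

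As a pool, the C-type genes were lower than the other members in EpiSCs, which Pcdhgc5 did not share. Pooled over the 5 genes, first exons were at 57.7% ± 0.67 in EpiSCs, compared with 92.0% ± 0.093 in the 53 other members (SD, n = 2). In ASCs the pooled levels were 20.9% ± 0.69 and 22.0% ± 0.26, and in ESCs 6.59% ± 0.47 and 6.66% ± 0.20. No test between the gene groups was made, since genes are not replicates.

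Pcdhac2 had the lowest first-exon level in EpiSCs, at 24.8% and 29.5%, with 19.2% and 20.5% in ASCs and 5.95% and 4.69% in ESCs. Without EpiSC replicate 2, its difference between EpiSCs and ESCs was 19.4 points and it was no longer called. Pcdhgc3 (first exon chr18:37806410-37808977) was at 40.1% and 38.3% in EpiSCs, 5.05% and 2.71% in ASCs, and 1.85% and 2.87% in ESCs. Its ASC and ESC levels overlapped and differed by 1.52 points (adjusted p = 0.277). Pcdhac1 was at 73.8% and 75.3% in EpiSCs, 15.6% and 16.8% in ASCs, and 6.06% and 4.40% in ESCs. Pcdhgc4 was at 78.4% and 76.1% in EpiSCs, 34.5% and 29.0% in ASCs, and 9.47% and 9.57% in ESCs. Pcdhgc5 did not share the lower EpiSC level, with 94.1% and 94.9% in EpiSCs, 43.3% and 42.1% in ASCs, and 16.1% and 10.7% in ESCs. Pcdhgc4 and Pcdhgc5 were called higher in ASCs than ESCs, by 22.2 points (adjusted p = 0.00148) and 29.3 points (adjusted p = 0.00161). Pcdhgc4 was not called without ASC replicate 1, at 19.4 points. Apart from the C-type genes, the lowest EpiSC level was that of Pcdhgb7, at 77.2% and 78.3%.

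The order of the members in ASCs was shared between the libraries. Across the 58 first exons, the ASC replicates correlated with r = 0.940 (rho = 0.940), and the ASC mean correlated with the ESC mean with r = 0.758 (rho = 0.661) and with the EpiSC mean with r = 0.144 (rho = -0.0959). The ASC mean correlated with CpG sites per 100 bp with r = -0.394 (rho = -0.492), and the 4 lowest first exons, those of Pcdha12, Pcdhga12, Pcdhgb6 and Pcdhgc3, held 5.41, 5.20, 5.34 and 5.80 CpG sites per 100 bp. The highest in ASCs, those of Pcdha6 and Pcdha7, held 4.55 and 4.97, also above the median of 3.07. Pcdhb6, the highest of its family, held 1.72. Within families the correlation of the ASC mean with CpG density ranged from r = -0.169 (rho = -0.113) over the 22 Pcdhb genes to r = -0.883 (rho = -0.857) over the 7 Pcdhgb genes, with r = -0.392 over the 12 Pcdha and r = -0.700 over the 12 Pcdhga genes. These are descriptions across genes of 1 locus, which share libraries and sequence similarity. At 400 observations, close to the usual depth of a first exon, the 95% Wilson interval of a level of 50% runs from 45.1% to 54.9%, which covers counting error only.

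Of the 9 promoters tested, 5 were called lower in ASCs than in EpiSCs, against 34.3% of the 23732 promoters tested, and 6 were called higher in EpiSCs than in ESCs, against 52.7%. ASCs were called higher than ESCs at 2, against 35.0%, and had an adjusted p under 0.05 at 4, against 52.8%. With so few members tested, the counts are given as a description. Of these 9, the 5 that were not C-type were highly methylated in EpiSCs, and the 4 C-type promoters were at or below 24.0% in every library.

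Pcdhgb8, Pcdhgb5 and Pcdhgb4 had the largest differences between ASCs and EpiSCs. Pcdhgb8 was at 1.45% and 4.35% in ASCs, with 1.83% and 0% in ESCs and 90.3% and 82.2% in EpiSCs. The 0% was 0 of 82 observations, which allows up to 3.66%. It lay 83.4 points lower in ASCs than in EpiSCs (adjusted p = 3.1e-07). Pcdhgb5 was at 3.70% and 2.27% in ASCs, with 1.45% and 1.01% in ESCs and 77.9% and 80.8% in EpiSCs. Pcdhgb4 was at 10.8% and 14.7% in ASCs, with 4.21% and 6.45% in ESCs and 90.3% and 92.3% in EpiSCs. At none of these 3 genes did ASCs differ from ESCs by the test, with adjusted p between 0.0923 and 0.430.

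Pcdhga11 and Pcdhb13 were the promoters called higher in ASCs than ESCs. Pcdhga11 was at 25.9% and 31.1% in ASCs, with 5.08% and 9.38% in ESCs and 98.7% and 96.6% in EpiSCs. It exceeded ESCs by 21.3 points (adjusted p = 0.00460), but by 18.6 points without ASC replicate 2 and 19.1 points without ESC replicate 1, and with a window that reached 500 bp to either side of the start the difference was -0.76 points. Pcdhb13 was at 34.0% and 14.3% in ASCs, with 5.77% and 1.05% in ESCs and 92.8% and 90.7% in EpiSCs. Its ASC libraries differed by more than those of the other 8 member promoters tested. The difference from ESCs, 20.7 points (adjusted p = 0.00485), fell to 10.9 points without ASC replicate 1 and had an adjusted p of 0.122 without ESC replicate 2, and it was 13.7 points with the window of 500 bp. The count of 2 promoters was 1 without ASC replicate 2, without ESC replicate 1 or without ESC replicate 2.

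The 4 C-type promoters tested were low also in EpiSCs, and the fifth, that of Pcdhgc5, was not. Pcdhgc5 was at 81.9% and 92.3% in EpiSCs, with 31.9% and 10% in ASCs and 5.97% and 11.1% in ESCs, from 30 to 72 observations in a library, which left it untested. Pcdhac1 was at 24.0% and 23.5% in EpiSCs, 13.9% and 5.47% in ASCs, and 5.21% and 0.885% in ESCs. It was called higher in EpiSCs than in ESCs by 20.7 points (adjusted p = 0.000305), and not called without ESC replicate 2, at 18.5 points. The difference between ASCs and EpiSCs at Pcdhac1 was -14.1 points, and ASCs were not called, whereas with a window that reached 500 bp to either side of the start they were called, at -36.5 points (adjusted p = 5.74e-06). Pcdhac2 was at 18.3% and 14.5% in EpiSCs, 15.7% and 11.6% in ASCs, and 1.80% and 2.59% in ESCs, so the EpiSC and ASC libraries overlapped (adjusted p = 0.732). Pcdhgc3 was at 13.6% and 19.2% in EpiSCs and at 1.96% and 4.05% in ASCs. It was at 0% in both ESC libraries, with 0 of 255 and 0 of 237 observations, which allow up to 1.18% and 1.27%. Pcdhgc4 was at 5.59% and 8.49% in EpiSCs and at 0% and 2.92% in ASCs. The 0 of 61 observations in ASC replicate 1 allow up to 4.92%, and both ESC libraries were at 0%, with limits of 3.80% and 4.29%.

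**Figure D3:**
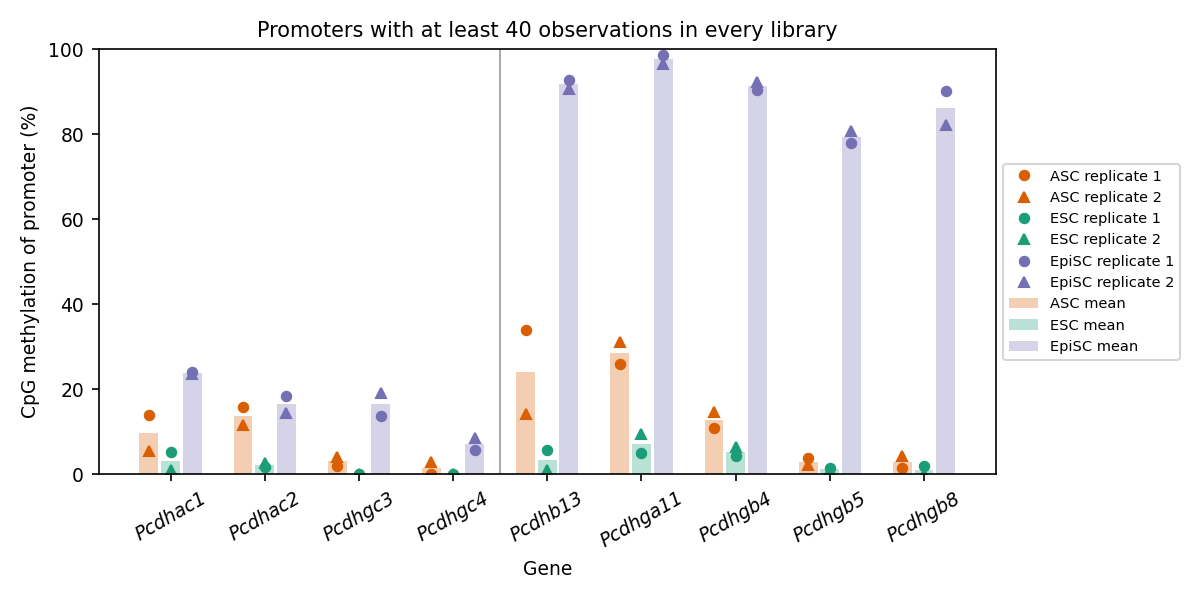
CpG methylation (%, vertical axis) of the 9 promoters with at least 40 observations in every library, with points for single libraries and pale bars for the mean of 2. The 4 C-type promoters on the left reach at most 24.0% in EpiSCs (purple), and the other promoters on the right reach 77.9% to 98.7% in EpiSCs while staying at or below 34.0% in ASCs (orange).

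Pooled over all 58 promoters, the minimum aside, ASCs were at 16.9% ± 0.56, ESCs at 3.98% ± 0.32 and EpiSCs at 66.0% ± 0.56 (SD, n = 2, at least 2141 observations in every library). Pcdha promoters were at 18.9% ± 0.19, 6.95% ± 0.94 and 87.1% ± 2.09, and Pcdhga promoters at 25.0% ± 1.90, 6.02% ± 0.24 and 93.2% ± 1.44 in ASCs, ESCs and EpiSCs. Pcdhgb promoters were at 9.64% ± 0.89, 3.42% ± 0.050 and 82.0% ± 0.40. Pcdhb promoters were lower in EpiSCs than the other variable families, at 22.6% ± 4.57, 3.33% ± 1.29 and 67.6% ± 2.48. C-type promoters were the lowest as a pool, at 7.46% ± 3.53, 1.60% ± 0.29 and 22.1% ± 0.79, although Pcdhgc5 among them had an EpiSC mean of 87.1%.

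The level changed with distance from the start. Pcdhga and Pcdhgb genes were pooled in 1 profile, and no test between the profiles was made. Around the Pcdhga and Pcdhgb starts, ASCs were nearly unmethylated. The level was 1.42% ± 2.01 in the 250 bp before the start, 1.04% ± 0.25 in the 250 bp after it and 1.09% ± 0.26 in the next 250 bp (SD, n = 2). ESCs were at 0.402%, 0.321% and 0.983% in the same bins, whereas EpiSCs were at 81.2%, 88.4% and 90.3%. The ASC level was higher on both sides of this stretch, at 57.4% ± 2.21 from 1250 to 1000 bp before the start and 32.3% ± 5.74 from 1250 to 1500 bp after it. Pooled over the Pcdhga and Pcdhgb genes, the first exon average of ASCs thus combined a nearly unmethylated 5′ end with a partly methylated body. No profile of single genes was made. The whole first exons of Pcdhga12 and Pcdhgb6 were low in ASCs, with means of 3.58% and 3.62%.

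Around the Pcdhb starts, EpiSCs were also lower, at 50.5% ± 6.09 in the 250 bp before the start and 65.1% ± 5.74 in the 250 bp after it. ASCs were at 4.19% ± 2.0 and 6.08% ± 2.20 there. The ASC level reached 49.1% ± 6.13 from 1000 to 1250 bp after the start and was low again, at 7.83% ± 0.96, from 2000 to 2250 bp, where EpiSCs were at 92.2% ± 0.86. That bin held 247 CpG sites, compared with 124 in the bin of the peak. Pcdha genes, as a pool, had a shallower minimum in ASCs, between 12.6% and 14.9% in the bins between 250 bp upstream and 750 bp downstream of the start. The pool includes Pcdha6, Pcdha7 and Pcdha8, the family's highest first exons in ASCs, and no profile without them was made. In C-type genes the low stretch extended to EpiSCs, at 21.0% ± 2.30 in the 250 bp before and 15.3% ± 2.62 in the 250 bp after the start, with ASCs at 0.649% ± 0.92 and 3.44% ± 0.094.

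**Figure D4:**
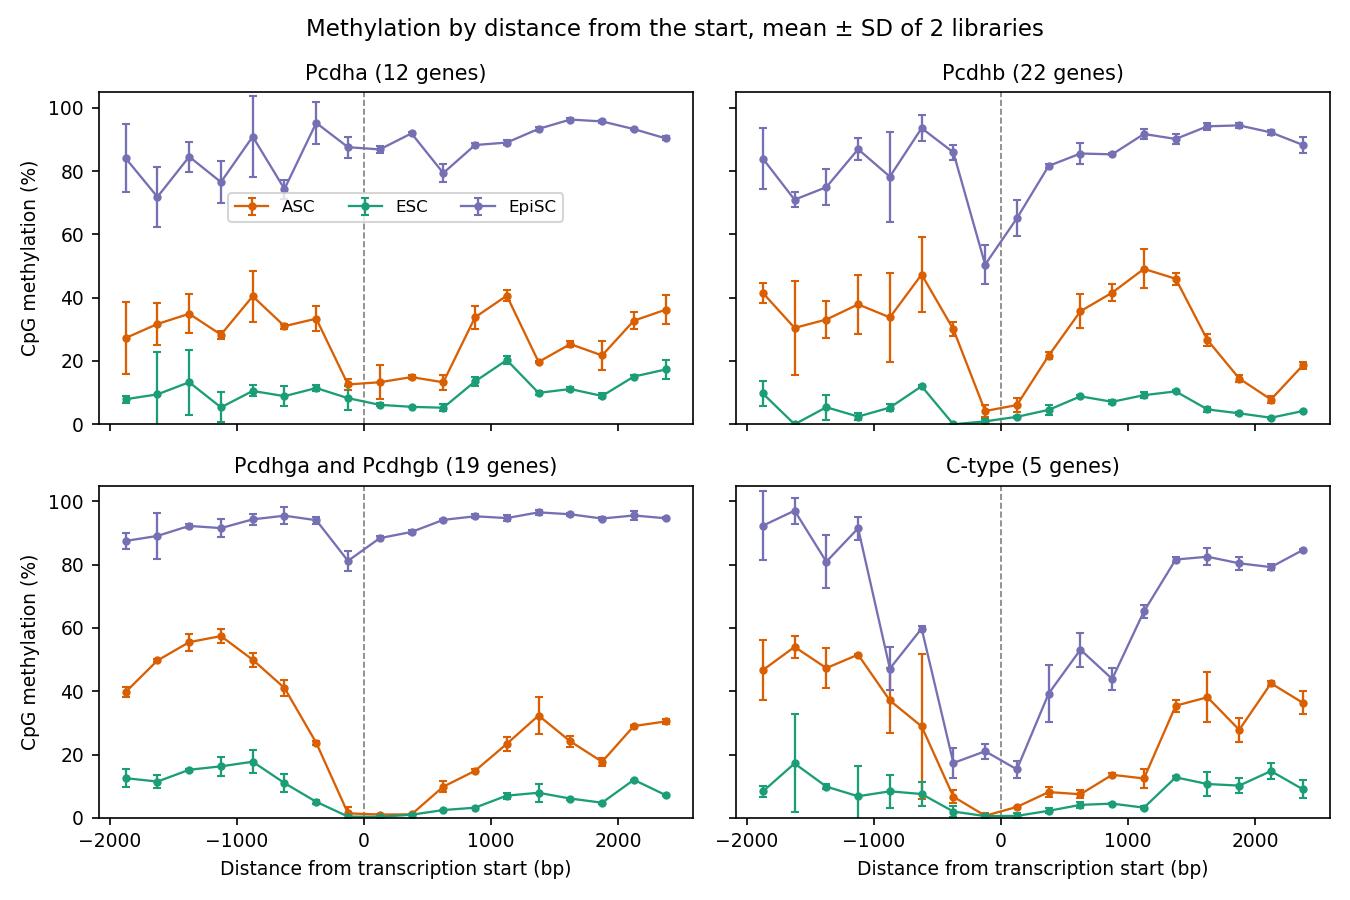
CpG methylation (%, vertical axis) by distance from the transcription start (bp, bins of 250 bp, horizontal axis), pooled over the genes of each family, with the mean and SD of 2 libraries. ASCs (orange) drop to near the ESC level (green) at the start in the gamma, beta and C-type genes, and EpiSCs (purple) drop there most in the beta and C-type genes. Bins upstream of the start hold few observations, down to 5 in a library, and have the widest error bars.

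Of the constant exons, only the last of each cluster was tested, and the alpha one had the higher level in every library. The last alpha constant exon (chr18:37184946-37187657), which all 14 alpha genes share, was at 61.7% and 62.7% in ASCs, with 13.0% and 8.79% in ESCs and 94.0% and 95.3% in EpiSCs. The last gamma constant exon (chr18:37839903-37841873) was at 5.97% and 4.90% in ASCs, with 1.08% and 1.86% in ESCs and 67.8% and 66.4% in EpiSCs. The alpha exon was close to the medians of other exons after the first, which were 65.1% ± 0.11, 18.4% ± 0.34 and 94.3% ± 0.023 in ASCs, ESCs and EpiSCs (SD, n = 2, 24118 exons), and the gamma exon was under all of them. ASCs were called lower than EpiSCs at both exons, by 32.4 points in the alpha exon (adjusted p = 2.12e-05) and 61.6 points in the gamma exon (adjusted p = 2.17e-09), where 64.2% of the 24120 exons tested were called. Both were called higher in EpiSCs than in ESCs, against 93.9% of exons. Only the alpha exon was called higher in ASCs than ESCs, by 51.4 points (adjusted p = 5.5e-07), against 81.6% of exons. The gamma exon differed by 3.96 points (adjusted p = 0.00781), so that both passed without the minimum of 20 points, as did 89.6% of exons. Whether the alpha and gamma exons differ in this change was not tested.

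The 4 other constant exons were under 40 observations. The first gamma constant exon had no methylated observation in any library, with 12 to 33 observations each, which allow between 9.09% and 25.0%. The first alpha constant exon was at 38.5% and 57.1% in ASCs from 13 and 7 observations. The second constant exons of both clusters hold 1 CpG site each, and at most 11 observations lay on either of them in a library.

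Within the arrays, methylation of ASCs and ESCs was lower in the first exons than in the sequence between them. In the alpha array, first exons were at 24.5% ± 0.58 in ASCs and sites outside exons and their upstream 1000 bp at 62.6% ± 0.15 (SD, n = 2). The corresponding values were 25.3% ± 1.49 and 47.1% ± 1.68 in the beta array, and 17.8% ± 0.24 and 51.2% ± 1.07 in the gamma array. In ESCs, first exons and other sites were at 11.1% and 29.0% in the alpha array, at 5.01% and 10.7% in the beta array, and at 5.03% and 11.8% in the gamma array. In EpiSCs, sites outside exons were at 87.8% ± 1.05, 78.9% ± 2.50 and 91.5% ± 0.51 in the 3 arrays, close to or lower than the exons. Between the alpha and beta clusters, ASCs were at 57.2% ± 0.50, and between the beta and gamma clusters at 50.4% ± 0.60.

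Over 180 tiles of 2 kb within the locus, the median of ASCs was 28.9% ± 0.67, that of ESCs 6.42% ± 0.28 and that of EpiSCs 91.6% ± 0.32 (SD, n = 2). Over 130 tiles in the 200 kb on each side they were 63.0% ± 0.10, 18.2% ± 0.14 and 91.7% ± 0.51. Of the tiles at or above 80% in EpiSCs, 87 of 146 in the locus were under 40% in ASCs (59.6%), compared with 5 of 99 in the flanks (5.05%) and 6.23% of 394998 in the genome. Tiles under the minimum of observations in any library were left out, so the shares describe the tiles counted and not the whole locus. The locus, flanks and genome were not matched in CpG density. The alpha and gamma arrays were denser in CpG sites than either flank, and the beta array lay between the flanks. Neighbouring tiles are not independent, and no test was made on these shares.

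**Figure D5:**
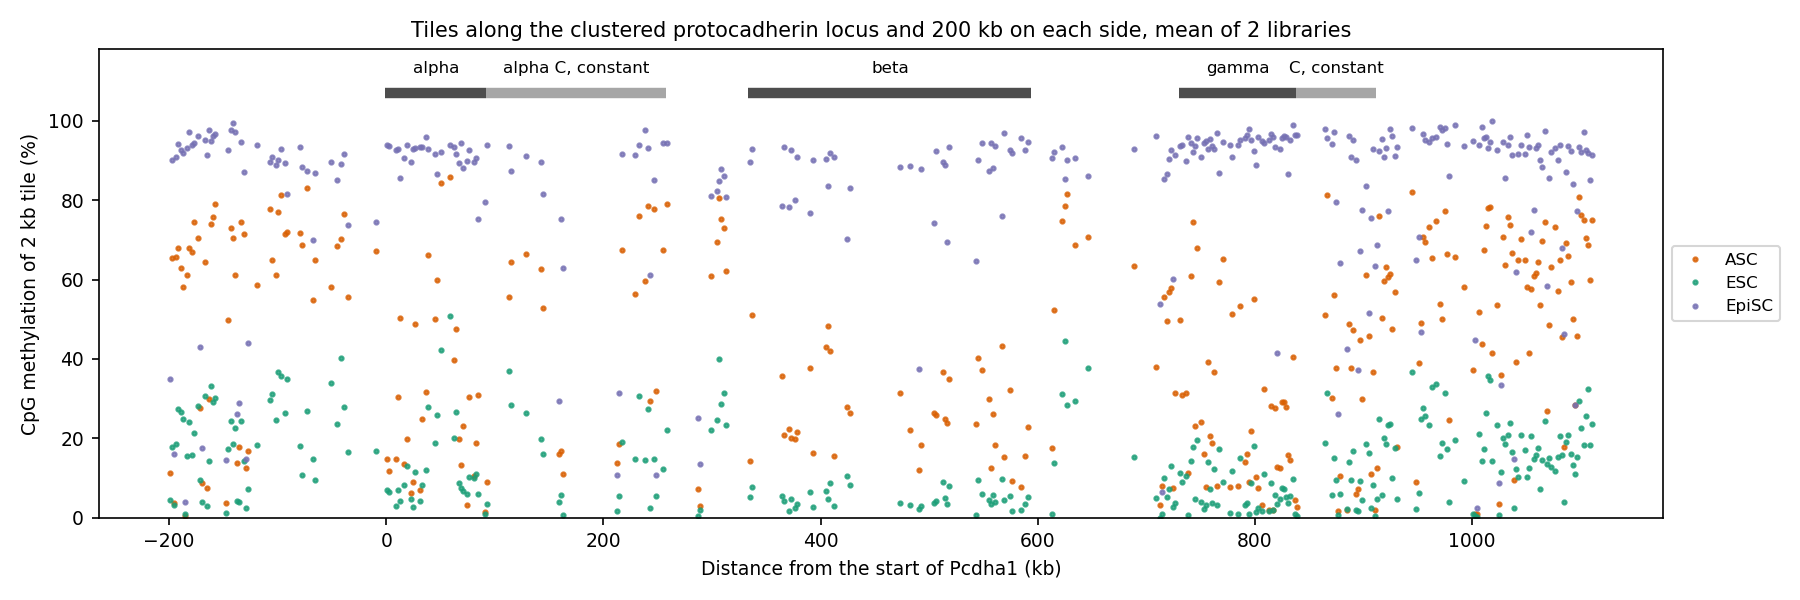
CpG methylation (%, vertical axis) of tiles of 2 kb, mean of 2 libraries, by distance from the start of Pcdha1 (kb, horizontal axis), with bars above for the alpha, beta and gamma arrays (dark) and the parts with C-type and constant exons (light). ASC tiles (orange) lie mostly under 40% within the arrays and mostly between 50% and 80% in the 200 kb on each side. EpiSC levels (purple) stay near 90% in most of the tiles shown, which are those that reached the minimum of observations.

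Protocadherins and related cadherins outside the clusters were examined at their promoters. Of 22 genes listed, 18 were tested. Of these, 5 were called lower in ASCs than in EpiSCs (34.3% of all promoters tested) and 7 higher in EpiSCs than in ESCs (52.7% of all). ASCs were called higher than ESCs at 2 (35.0% of all). Each share lay under that of all promoters, which were not matched to the list in CpG sites. All promoters tested held a median of 32 CpG sites, and those of Pcdh9, Pcdh10 and Pcdh17 held 59, 55 and 61. Of 6739 promoters outside the clusters with 50 or more CpG sites, 1.96% were at or above 80% in EpiSCs. Over the 18 listed promoters tested, the median difference between ASCs and EpiSCs was -2.39 points, compared with -11.6 points over all promoters. Pcdh9, a delta protocadherin, was at 0% and 0.649% in ASCs and at 94.5% and 91.2% in EpiSCs, where the 0 of 111 observations allow up to 2.70%. Pcdh10 was at 0% in both ASC libraries, with limits of 2.63% and 1.44%, and at 85.4% and 85.6% in EpiSCs. Pcdh17 was at 0% in both ASC libraries, with limits of 2.46% and 4.41%, and at 91.9% and 88.9% in EpiSCs. Pcdh19, on the X chromosome, was at 1.37% and 0% in ASCs, with a limit of 2.86% for the latter, and at 42.4% and 45.1% in EpiSCs. Pcdh12, a protocadherin of endothelial cells, was at 60.4% and 50.6% in ASCs and at 97.3% and 86.2% in EpiSCs. The remaining promoters tested, among them those of the large cadherins Fat1, Fat3, Fat4, Celsr1 and Celsr3, were not called in this contrast.

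Among 22 genes known to act on the clusters or on their methylation, 19 promoters were tested. Of these, 4 were called lower in ASCs than in EpiSCs, 5 higher in EpiSCs than in ESCs and 2 higher in ASCs than ESCs, each again a smaller share than the 34.3%, 52.7% and 35.0% of all promoters. The listed promoters were again not matched to all promoters in CpG sites. Dnmt3l, a cofactor of the de novo methyltransferases, was at 65.0% and 73.1% in ASCs, with 35.5% and 26.9% in ESCs and 91.4% and 94.4% in EpiSCs. Its difference between ASCs and EpiSCs was not called without ASC replicate 1, at -19.8 points, and without that library 1 promoter of the list, not 2, was called higher in ASCs than ESCs. Uhrf1, which directs the maintenance methyltransferase to replicated DNA, was at 8.60% and 8.85% in ASCs and at 33.9% and 43.8% in EpiSCs, and with a window that reached 500 bp to either side of the start the difference was -1.92 points. Smc1a, a cohesin subunit, was at 0% in both ASC libraries, with limits of 2.27% and 2.52%, and at 25.8% and 40.2% in EpiSCs. Smc1a lies on the X chromosome. The promoter of Ctcf, which encodes the factor bound at the variable promoters, had a mean of 0.529% in ASCs, against 0.932% in ESCs and 1.01% in EpiSCs, and that of Dnmt3b had means of 10.7%, 2.99% and 20.5%.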

How the data were processed

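Post-bisulfite adaptor tagging libraries of genomic DNA, 2 per group, were sequenced from 1 end. Per the labels and the methods of the study, the authors trimmed reads with Trim Galore, aligned them to GRCm38 with Bismark 0.16.3 in PBAT mode, removed PCR duplicates, and counted CpG reads on both strands together with MethPipe, version not given in the sources used here. Replicates were not pooled. The labels and the methods give different read lengths. The deposited tables hold, per CpG, the methylation level as a fraction and the coverage as a raw count of reads without normalization. The phage lambda control was not analysed here.

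The product of fraction and coverage was within 0.000115 of a whole number at every site, so methylated reads were recovered as counts. All listed sites fell on CpG sites of GRCm38. Reads were summed over regions of 1 transcript per gene of GENCODE M21, chosen by principal-isoform rank, on chromosomes 1 to 19 and X. Promoters covered -1000 to +100 bp around the start, the window of the study, and share 100 bp with the first exon. As in the study, regions under 40 observations were left out, here if any library was under it. A level of 50% at 40 observations has a 95% Wilson interval from 35.2% to 64.8%. Limits beside 0% are 3 counts over the observations. Observations on 1 read are not independent, so intervals and limits cover counting error only.

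A logistic model with a term for group was fitted to all 6 libraries, with the dispersion from the Pearson statistic moderated across all regions of a kind by squeezeVar of limma 3.58.1 in R 4.3.3. Contrasts were tested with two-sided F tests and Benjamini-Hochberg adjustment over all regions of the kind, namely 23732 promoters, 14122 first exons and 24120 exons after the first. Adjusted p-values in the text come from this model. Its trial on simulated counts covered first exons alone, with the same spread in every group, and is not offered as support. A region was called at an adjusted p under 0.05 and at least 20 percentage points. The 58 genes and both further lists were chosen with earlier results of these data known. The naive and shared markers were taken from the study's own text and are not independent evidence. GENCODE gives the symbol Pcdha11 to 2 genes, and the upstream one (ENSMUSG00000007440), which ends its first exon where RefSeq ends that of Pcdha10, is called Pcdha10. Promoters of Pcdhb18, Pcdhb20 and Pcdhb22 overlap exons of the gene before them. A constant exon is an exon shared by at least 2 genes of a cluster, counted once.

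Named were all C-type genes and Pcdhb1, in each family the highest and lowest promoters and first exons in ASCs, members called unlike most of their family, members under the minimum, all constant exons, and list genes called between ASCs and EpiSCs, except 1 that is counted but not reported here. Pcdha5, Pcdha9, Pcdhgb2, Pcdhga5, Pcdhgb7, Ctcf, Dnmt3b and the large cadherins named, and the first exon of Pcdhgb8, were added after their values were seen. Alternatives were other minimums, windows, tests, dispersions, a replicate block, leaving out each library, and protein-coding genes alone, added after seeing the data.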

Additional observations from a re-analysis of the deposited data

How the results depend on the processing

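With all 6 libraries kept, first exons called lower in ASCs than in EpiSCs stayed between 56 and 58 under every alternative. Those called higher in EpiSCs than in ESCs did so too. With no minimum difference, 52 were called higher in ASCs than ESCs, against 36.8% of all first exons. Shares of all first exons under the other alternatives were not counted. Where a library was left out, the lone library of its group was assumed to vary like the others, and the model shares 1 dispersion among the groups. Between replicates the mean chi-square per first exon at intermediate levels was 3.69 in EpiSCs, against 1.82 in ASCs and 1.73 in ESCs, so the EpiSC libraries differed more than that assumption has it. Promoters of the clusters depended on the minimum and the window. With a minimum of 20 observations, 29 promoters were tested, of which 24 were called lower in ASCs than in EpiSCs, 26 higher in EpiSCs than in ESCs and 9 higher in ASCs than ESCs, where 39.5%, 64.8% and 49.1% of all 33202 promoters tested were called. With a window of 500 bp on each side, 36 were tested and the counts were 33, 33 and 4, with 31.9%, 46.7% and 33.2% of all 25934 called. With a minimum of 100 observations, 1 was tested and all 3 counts were 0, with 17.8%, 24.9% and 9.09% of all 10833 called. With no minimum difference, 4 promoters were called higher in ASCs than ESCs, and leaving out a library gave 1 to 2. The difference between ASCs and ESCs at the Pcdhga11 promoter changed sign with the window of 500 bp, to -0.76 points (adjusted p = 0.564 by the limma-moderated model).

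The median promoter level in ASCs, ESCs and EpiSCs was 15%, 3.75% and 88.2% with a minimum of 20 observations, 3.0%, 0% and 16.4% with a minimum of 100, and 16.9%, 3.98% and 66.0% when pooled over all 58 promoters. The pooled level of the first exons was 21.9%, 6.65% and 87.5%.

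For constant exons, a minimum of 100 observations left 1 exon tested and counts of 0 (ASCs over ESCs), 1 (ASCs under EpiSCs) and 1 (EpiSCs over ESCs), where 76.9%, 66.5% and 91.4% of all 8195 exons were called, and with no minimum difference 2 were higher in ASCs than ESCs. For the other protocadherins, the counts in the same order were 0, 2 and 3 of 12 with a minimum of 100 observations and 5, 8 and 13 of 18 with no minimum difference. For the genes acting on the clusters they were 0, 1 and 1 of 12, and 5, 9 and 10 of 19. Over all promoters the shares in this order were 9.09%, 17.8% and 24.9% with a minimum of 100 and 52.8%, 62.2% and 81.6% with no minimum difference. Taking the most upstream coding start gave 4 of 17 promoters of the genes acting on the clusters higher in ASCs than ESCs, with 35.9% of all promoters called, and leaving out a library gave 1 to 2. The cause of these changes was not tested beyond the number of regions each setting leaves.

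The replicate numbers were not taken to pair the libraries, since the labels do not say that a number marks a shared batch. Deviations of replicate 1 from the group mean correlated across first exons with -0.00545 between ASCs and ESCs. The values were -0.0117 between EpiSCs and ESCs and 0.0103 between ASCs and EpiSCs. These cannot exclude a shared batch, because the median first exon was at 1.48% in ASCs, 1.20% in ESCs and 5.71% in EpiSCs, which leaves little room for deviations. With a replicate block, the counts of first exons were 23, 57 and 58 and those of promoters 2, 5 and 6, the same as without it. Shares over all regions with the block were not counted.

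Few observations limit the promoters, where 49 of 58 were under the minimum. Member promoters had between 2.44 and 3.10 reads per CpG site, against 3.23 to 4.53 in other protein-coding genes. They held a median of 14 CpG sites, against 28. The part of each in the shortfall was not tested. No group has more than 2 libraries, so no library could be examined as an outlier.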
